A study of Mus musculus with 16 samples.

Results

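The TGF-beta ligand, receptor and latent binding protein genes were followed through the mouse epicardial line MEC1 in all 8 groups of the study. They are the ligand genes Tgfb1, Tgfb2 and Tgfb3, the signalling receptor genes Tgfbr1, Tgfbr2 and Acvrl1, the co-receptor genes Tgfbr3 and Eng, and the latent binding protein genes Ltbp1 and Ltbp2. They were taken by gene symbol, though with earlier results of these data known, and are 10 of the 46348 rows of the gene-level count table. All 10 passed the filter on low counts, which left 15494 genes to test, but Acvrl1 passed it only through its counts in TGF-beta-treated cells.

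MEC1 is an established line derived from mouse epicardium, the outer mesothelium of the heart, and its poly(A)-enriched RNA was sequenced. The 4 siRNA treatments were control siRNA, PRMT1 siRNA, p53 siRNA and the last 2 combined (called both siRNAs here), each without and with TGF-beta, in 2 libraries per group and 16 in all. PRMT1 is a protein arginine methyltransferase and p53, encoded by Trp53 in the mouse, a transcription factor of the stress response. Every group had an siRNA, so the baseline is cells with control siRNA and no TGF-beta. The isoform, dose and time of the TGF-beta treatment and the siRNA sequences are not given in the sources used here. The series describes the 2 libraries of a group as biological replicates of this single line, with no word on separate cultures, so p-values measure the spread between these libraries, which may be technical. RNA was taken from whole cultures, in which fewer cells expressing a gene and less RNA per cell cannot be told apart.

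TGF-beta ligands are secreted in a latent form, held by their own propeptide and tethered to the extracellular matrix by latent binding proteins until integrins or proteases release them. The active ligand is bound by the type II receptor TGFBR2, which recruits and phosphorylates a type I receptor, TGFBR1 (ALK5) in most cells or ACVRL1 (ALK1) in endothelium, and the type I receptor phosphorylates Smad proteins. Betaglycan, the product of Tgfbr3, and endoglin, the product of Eng, are co-receptors, and TGF-beta2 depends on betaglycan for strong binding to TGFBR2. In the epicardium this pathway is known for driving the loss of epithelial character and the invasion of the heart wall, and mice without Tgfbr3 have defects of the coronary vessels.

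The genes lie on 9 chromosomes of mm10, with positions from GENCODE vM21. Among the ligands, Tgfb1 is at chr7:25687002-25705077, Tgfb2 at chr1:186622792-186705989 and Tgfb3 at chr12:86056745-86079041. Among the receptors, Tgfbr1 is at chr4:47353222-47414931, Tgfbr2 at chr9:116084293-116175360, Acvrl1 at chr15:101128522-101145336, Tgfbr3 at chr5:107106570-107289629 and Eng at chr2:32646595-32682669. Ltbp1 is at chr17:75005568-75392512, and Ltbp2 shares chromosome 12 with Tgfb3, at chr12:84783212-84876532. Transcripts on the other strand share exonic bases with Ltbp2 (764 bases, D030025P21Rik), Tgfb3 (257 bases, Gm48008, and 163 bases, Gm37804), Acvrl1 (127 bases, Gm16031), Tgfb2 (124 bases, Gm29491) and Eng (61 bases, Fpgs). The strand setting of the counting is not given in the sources used here, so reads from these stretches cannot be told apart, and Gm43422 shares 297 exonic bases with Tgfbr3 on its own strand.

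The 250 bases before the transcription start are shown for 3 genes that changed with TGF-beta under every siRNA treatment, as the stretch searched for the DNA box of Smad proteins: Tgfb1 and Ltbp1, whose RNA rose, and Tgfbr2, whose RNA fell. Sequences are from RefSeq on GRCm38.p6, 5′ to 3′ on the strand of the gene, with capitals for CAGAC or its reverse complement GTCTG, the extended form of the box bound by SMAD3 and SMAD4. Ltbp1 has an upstream start for the long form of the protein and a downstream start for the short form, and its single row in the count table does not tell them apart. For neither Ltbp1 window was a stretch just after the RefSeq start found in a GENCODE vM21 transcript of the gene.
Tgfb1, chr7:25686752-25687001, plus strand: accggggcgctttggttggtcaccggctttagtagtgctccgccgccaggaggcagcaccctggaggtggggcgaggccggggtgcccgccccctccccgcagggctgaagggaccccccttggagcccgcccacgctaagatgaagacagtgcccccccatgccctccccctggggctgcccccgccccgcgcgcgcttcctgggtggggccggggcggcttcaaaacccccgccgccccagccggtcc
Ltbp1 upstream start, chr17:75005279-75005528, plus strand: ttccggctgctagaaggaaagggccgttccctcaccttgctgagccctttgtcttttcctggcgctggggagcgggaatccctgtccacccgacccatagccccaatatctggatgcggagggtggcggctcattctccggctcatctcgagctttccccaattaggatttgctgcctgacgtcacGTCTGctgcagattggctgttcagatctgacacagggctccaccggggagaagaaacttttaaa
Ltbp1 downstream start, chr17:75178531-75178780, plus strand: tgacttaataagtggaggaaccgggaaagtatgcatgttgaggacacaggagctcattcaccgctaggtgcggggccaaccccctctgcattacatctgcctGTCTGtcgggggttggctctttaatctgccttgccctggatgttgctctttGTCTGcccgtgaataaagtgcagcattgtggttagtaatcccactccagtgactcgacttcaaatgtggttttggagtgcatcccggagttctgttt
Tgfbr2, chr9:116175364-116175613, minus strand: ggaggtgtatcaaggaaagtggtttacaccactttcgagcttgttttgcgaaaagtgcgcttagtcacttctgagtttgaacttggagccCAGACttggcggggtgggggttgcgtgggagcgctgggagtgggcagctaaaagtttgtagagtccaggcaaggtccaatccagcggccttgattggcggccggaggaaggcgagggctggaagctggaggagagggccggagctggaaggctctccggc

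The Tgfb1 window holds neither form, the upstream Ltbp1 window holds 1, the downstream Ltbp1 window holds 2 and the Tgfbr2 window holds 1. RefSeq windows (the upstream Ltbp1 start of RefSeq lies before that of GENCODE) were matched for 7 of the 10 genes, 9 windows in all, and the motif was also present in Tgfb2 (2 matches), Eng (2), Ltbp2 (2) and the second start of Tgfbr1 (1), but not at the first start of Tgfbr1. Of 32851 promoter windows of the same length in the genome, 42.2% hold CAGAC or GTCTG on these letters alone. The AP-1 element TGANTCA, which reads the same on both strands, was in none of the 9 windows and in 6.75% of all windows. These matches describe letters, and the presence or absence of a match says nothing here about binding.

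Library totals ran from 19617874 to 30759317 counts. Replicate 2 of p53 siRNA with TGF-beta stood apart: the root mean square of the log2 differences between it and replicate 1 came to 0.805, compared with 0.341 to 0.426 for the remaining 7 groups. Its long transcripts (the quartile above 4463 bases) were lower against its short ones (the quartile below 1803 bases) by a log2 value of -0.73, against -0.25 to 0.24 in the other 15 libraries. Within that range the value also differed between groups. It was 0.236 and 0.209 in control siRNA with TGF-beta and -0.179 and -0.147 in PRMT1 siRNA with TGF-beta. The part of transcript length in comparisons of these groups was not tested. All groups share 1 estimate of the spread, so values that depend on this library are also given for the 15 libraries without it, a fit in which 16103 genes passed the filter. The siRNA targets matched the labels: Prmt1 was at 157.7 ± 21.2 CPM (counts scaled by TMM to a common library size, SD, n = 2) with control siRNA and 75.8 ± 1.85 with PRMT1 siRNA, both without TGF-beta, and Trp53 at 136.4 ± 11.5 and, with p53 siRNA, 54.8 ± 0.82. With both siRNAs Trp53 was at 89.4 ± 1.87 CPM. The 11 epicardial and mesothelial markers summed to 1310 to 1740 CPM in untreated libraries and to 357 to 424 CPM with TGF-beta, with Wt1 at 108 to 319 CPM in all libraries but Aldh1a2, Krt8 and Krt19 never above 1.59 CPM. Most markers of other cells were low. The 10 endothelial markers summed to 4.6 to 9.8 CPM, with Tie1 at 0 in every library but Kdr at 2.92 to 7.47 CPM. The 6 haematopoietic markers summed to 8.5 to 41.8 CPM, with Adgre1 at 0 but Cd14 at 6.43 to 37.7 CPM. The 6 cardiomyocyte markers summed to 3.12 to 24.5 CPM without and 51.5 to 140 CPM with TGF-beta. Of these, Tnnt2 ran from 1.95 to 140 CPM over all libraries. The part of these marker changes in the results below was not tested.

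In control cells without TGF-beta the genes spanned a wide range of levels. Compared per length, as CPM per kilobase of the longest coding transcript, Tgfb3 was the most abundant (36.9 ± 0.36, SD, n = 2), followed by Tgfbr2 (33.1 ± 1.17), Tgfbr3 (18.9 ± 2.05), Tgfb2 (15.7 ± 1.15), Ltbp2 (13.9 ± 0.57), Ltbp1 (12.6 ± 1.04), Tgfbr1 (11.1 ± 0.91) and Tgfb1 (7.89 ± 0.58). Far below came Eng (0.53 ± 0.07) and Acvrl1 (0.0061 ± 0.0086), the co-receptor and type I receptor best known from endothelium. The 2 libraries of each gene did not overlap those of the next in this order. With TGF-beta the order changed: Ltbp1 came first (45.9 ± 3.36), then Tgfb3 (38.4 ± 0.02), while Tgfb1, Ltbp2, Tgfbr2 and Tgfb2 lay between 21.1 and 19.6 CPM per kilobase with overlapping libraries from each to the next, and Tgfbr3 dropped to 3.42 ± 0.50, below Tgfbr1 (9.14 ± 0.34). The transcript that each cell uses is not known from a gene-level table, so this order rests on the annotated length.

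**Figure D1:**
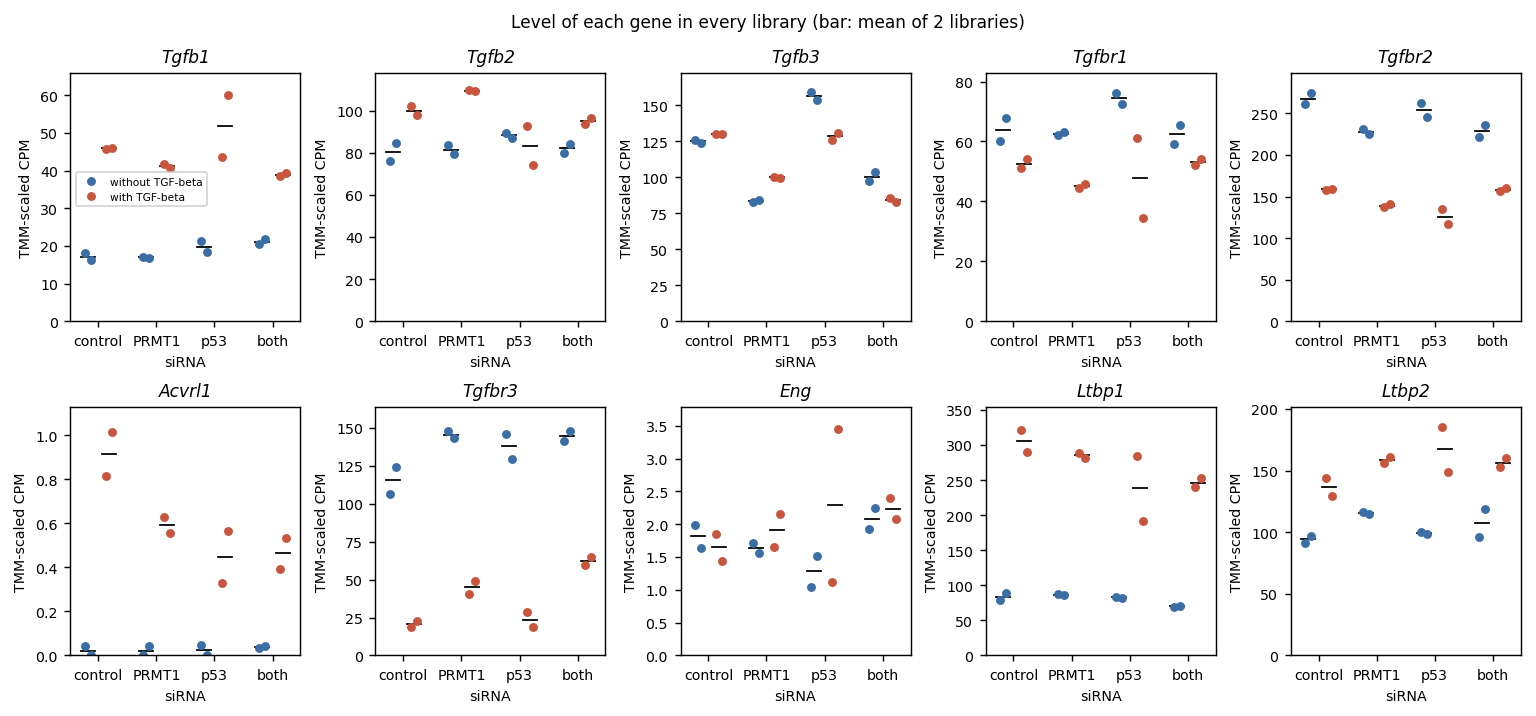
Level of each of the 10 genes in every library, in TMM-scaled CPM (y axis, starting at 0 in each panel), by siRNA treatment (x axis), without (blue) and with TGF-beta (red), with a bar at the mean of the 2 libraries. Treated points lie above untreated points in all 4 siRNA treatments for Tgfb1, Acvrl1, Ltbp1 and Ltbp2, and below them for Tgfbr1, Tgfbr2 and Tgfbr3.

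TGF-beta changed most of these genes, in both directions. With control siRNA, 5 rose and 2 fell of 10, where rose and fell mean an edgeR quasi-likelihood adjusted p under 0.05 over all genes tested. Among all genes tested 38.4% were called, 17.8% higher and 20.6% lower. With PRMT1 siRNA 6 rose and 2 fell (32.5% of all genes called, 16.3% higher and 16.2% lower), with p53 siRNA 4 rose and 4 fell (45.3%, 23.3% and 22%), and with both siRNAs 4 rose and 3 fell (31.3%, 15% and 16.3%). Acvrl1, which could enter the test only through its treated libraries, is among those that rose in each count. Over the other 9 genes the counts were 4 higher and 2 lower with control siRNA, 5 and 2 with PRMT1 siRNA, 3 and 4 with p53 siRNA, and 3 and 3 with both siRNAs. Tgfb1, Ltbp1 and Ltbp2 rose and Tgfbr2 and Tgfbr3 fell under all 4 siRNA treatments. Of these 20 calls, 19 were made under every alternative setting and with any 1 library left out, the exception being Ltbp2 with PRMT1 siRNA. The median log2 change of the 10 genes was 0.19, 0.34, 0.34 and 0.16 for control, PRMT1, p53 and both siRNAs, against -0.009, -0.013, 0.017 and -0.017 over all genes tested. Without Acvrl1 the medians were 0.06, 0.26, -0.08 and 0.11.

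**Figure D2:**
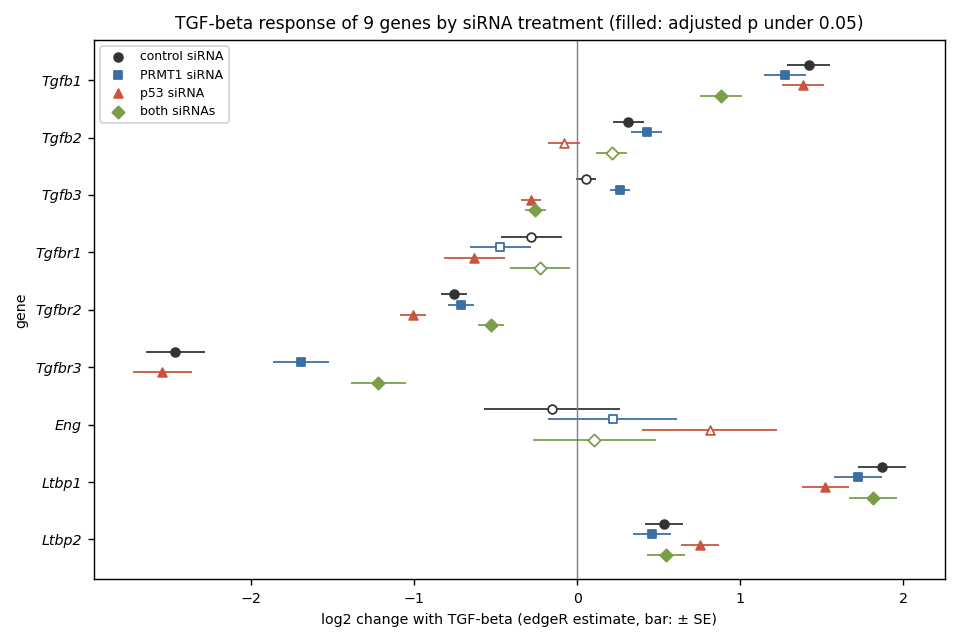
Log2 change with TGF-beta (x axis, edgeR estimate, bars ± SE) of 9 genes (y axis) under each siRNA treatment, with filled symbols where the adjusted p is under 0.05. Acvrl1 is left out because its untreated counts are too few for a fitted fold. Tgfb1, Ltbp1 and Ltbp2 lie to the right of 0 and Tgfbr2 and Tgfbr3 to the left in all treatments, with Tgfbr3 spread from -2.54 to -1.22.

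Tgfb1, which encodes the ligand most studied in fibrosis and mesenchymal transition, rose under every siRNA treatment. In control cells its level was 18.1 and 16.3 CPM without TGF-beta and 45.8 and 46.1 CPM with it. Neither treated library came near the untreated ones, and the log2 change was 1.42 ± 0.13 (SE, edgeR adjusted p = 4.9e-06). With PRMT1 siRNA the libraries read 17.1 and 16.9 against 41.7 and 40.8 CPM (1.27 ± 0.13), and with p53 siRNA 21.4 and 18.3 against 43.6 and 60.1 CPM (1.38 ± 0.13), where the value of 60.1 is from the library that stood apart and the change was 1.14 without it. With both siRNAs the untreated libraries were at 20.5 and 21.8 CPM, the highest mean of the 4 untreated groups, and the treated ones at 38.5 and 39.4 CPM, the lowest mean of the 4 treated groups. The log2 change there was 0.88 ± 0.13 (edgeR adjusted p = 0.00025), and its difference from the control response was not called (-0.54 ± 0.18, edgeR adjusted p = 0.271), while it was called with 15 libraries (-0.53, adjusted p = 0.00808) and with length offsets and 16 libraries (-0.55, adjusted p = 0.0296).

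Tgfb2, the ligand that needs betaglycan, moved little. Its control libraries read 76.4 and 84.7 CPM without and 102.2 and 98.1 CPM with TGF-beta, a rise of 0.31 ± 0.10 on the log2 scale (edgeR adjusted p = 0.0226). This call was lost without the low-count filter (edgeR adjusted p = 0.0541) and without 3 of the 4 libraries of the comparison, where the change ran from 0.24 to 0.34. With PRMT1 siRNA it rose from 83.6 and 79.5 to 109.7 and 109.3 CPM (0.43 ± 0.10, edgeR adjusted p = 0.0054). With p53 siRNA, libraries of 89.3 and 87.3 CPM without and 92.8 and 74.2 CPM with TGF-beta overlapped and no change was called, the value of 74.2 being from the library that stood apart. With both siRNAs Tgfb2 was at 80.0 and 84.5 CPM without and 93.9 and 96.6 CPM with TGF-beta, a change of 0.21 ± 0.10 that was not called with 16 libraries (edgeR adjusted p = 0.12) and was called with 15 (0.21, adjusted p = 0.00791).

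Tgfb3, the most abundant ligand gene per length in these cells, was the ligand gene whose TGF-beta response changed direction between siRNA treatments. In control cells it stayed close to its start, at 125.8 and 124.1 CPM without and 129.9 and 130.0 CPM with TGF-beta, and no change was called. With PRMT1 siRNA it rose from 82.6 and 84.4 to 100.5 and 99.7 CPM (0.26 ± 0.06, edgeR adjusted p = 0.0076). It fell instead with p53 siRNA, from 159.2 and 153.7 to 125.7 and 131.2 CPM (-0.28 ± 0.06, edgeR adjusted p = 0.0029), and with both siRNAs, from 97.2 and 103.7 to 85.5 and 82.7 CPM (-0.26 ± 0.06, adjusted p = 0.0083). Treated and untreated libraries did not overlap in any of the 4 treatments. All 3 calls were lost without the low-count filter, with adjusted p from 0.069 to 0.22, and those with PRMT1 siRNA and with both siRNAs also without single libraries of the comparison.

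Together these changes moved the make-up of the ligand RNA. Of the summed CPM per kilobase of the 3 ligand genes in control cells, Tgfb3 held 61.6% and 60.4% without TGF-beta and 48.3% and 48.8% with it, while the share of Tgfb1 went from 13.7% and 12.3% to 26.5% and 26.9%. The sum itself went from 60.4 and 60.7 to 79.4 and 78.8 CPM per kilobase. PRMT1 siRNA without TGF-beta gave a Tgfb3 share of 50.2% and 51.7% and the lowest sum, 48.6 and 48.3 CPM per kilobase. In p53 siRNA cells without TGF-beta, Tgfb3 held 63.3% and 64.1% of a sum of 74.3 and 70.9. The lowest Tgfb3 share, 41.2% and 39.8%, was found with both siRNAs and TGF-beta. Shares are descriptions of transcript levels, with no test and no bearing on secreted or active protein.

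**Figure D3:**
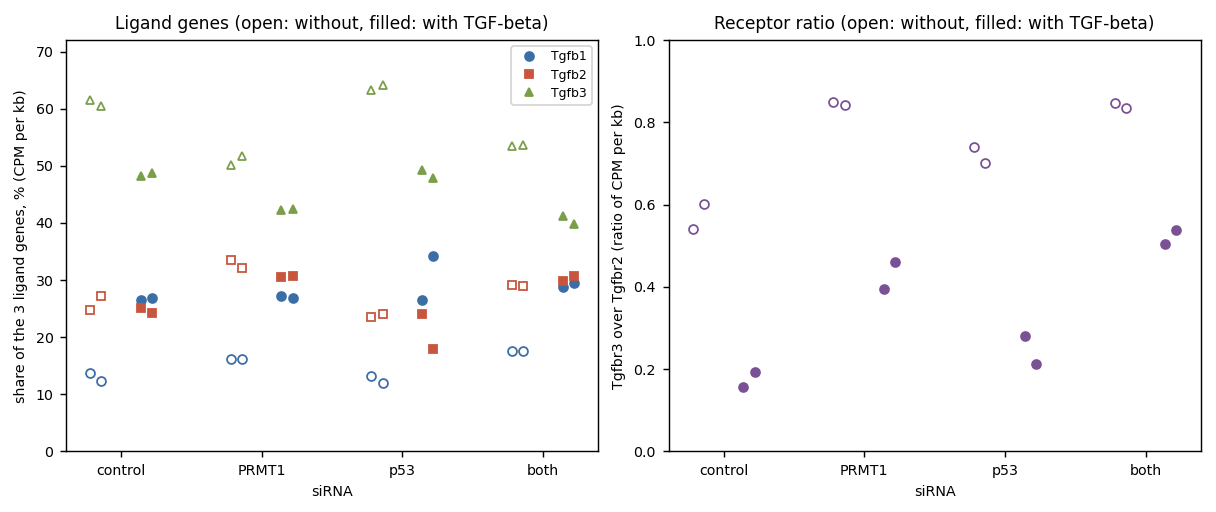
Left, share of each ligand gene in the summed CPM per kilobase of Tgfb1, Tgfb2 and Tgfb3 (y axis, %) in every library, by siRNA treatment (x axis); right, ratio of Tgfbr3 to Tgfbr2 per kilobase in the same libraries. Open symbols are without and filled with TGF-beta: the Tgfb1 share lies higher and the Tgfb3 share and the receptor ratio lie lower with TGF-beta in all 4 treatments, with the ratio in treated cells highest with both siRNAs (0.504 and 0.538).

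Tgfbr2, which encodes the ligand-binding type II receptor, fell with TGF-beta under every siRNA treatment. Control libraries were at 260.8 and 274.3 CPM without and 157.8 and 159.4 CPM with TGF-beta, so that 59.3% of the untreated level was left (log2 change -0.75 ± 0.08, edgeR adjusted p = 1.4e-05). With PRMT1 siRNA 231.0 and 225.5 CPM went to 137.2 and 141.4 CPM (61.0% left), and with both siRNAs 221.6 and 236.0 to 156.3 and 160.6 CPM (69.3% left). The lowest treated values were found with p53 siRNA, where 262.0 and 245.6 CPM went to 135.3 and 116.9 CPM (49.7% left, log2 change -1.01). The value of 116.9 is from the library that stood apart, and the change was -0.91 without it. No treated library reached an untreated one in any group.

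The type I receptor gene Tgfbr1 was lower in every treated library than in every untreated library of the same siRNA, but the change was small beside its spread in the fit. Control cells gave 60.3 and 67.7 CPM without and 51.2 and 54.0 CPM with TGF-beta, a log2 change of -0.28 ± 0.19 that was not called (edgeR adjusted p = 0.27). The PRMT1 siRNA libraries went from 62.1 and 63.1 to 44.4 and 45.9 CPM (-0.47 ± 0.19, edgeR adjusted p = 0.075) and those with both siRNAs from 59.0 and 65.7 to 52.3 and 54.1 CPM (-0.23 ± 0.19, adjusted p = 0.39). With p53 siRNA the values were 76.2 and 72.6 CPM without and 61.3 and 34.6 CPM with TGF-beta, and the fall was called (-0.63 ± 0.19, edgeR adjusted p = 0.0164). The value of 34.6 came from the library that stood apart. Without that library the falls were -0.29, -0.47, -0.28 and -0.23 for control, PRMT1, p53 and both siRNAs, and all 4 were called (edgeR adjusted p = 0.00218, 4.15e-05, 0.011 and 0.00942), against -0.63 for p53 siRNA with it. Length offsets with all 16 libraries also called the falls in control, PRMT1 siRNA and both-siRNA cells (-0.37, -0.34 and -0.34), and the p53 siRNA call of the 16-library test was lost without either untreated library (adjusted p = 0.0787 and 0.0505). Per kilobase, Tgfbr2 exceeded Tgfbr1 by 3.08 and 2.88 times in untreated control libraries and by 2.19 and 2.10 times with TGF-beta.

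Acvrl1, the type I receptor gene of endothelium, was close to the detection limit until TGF-beta was added. Its 8 untreated libraries held 0 or 1 count each. Control cells with TGF-beta held 15 and 24 counts, PRMT1 siRNA cells 16 and 16, p53 siRNA cells 7 and 11, and cells with both siRNAs 11 and 17. Every treated library was above every untreated one. Because the gene passed the low-count filter only through these treated libraries, its edgeR calls are not read as a test. The ratio of summed counts, scaled for library size, was 40.2 in control cells with an exact 95% interval of 6.81 to 1630, 29.5 with PRMT1 siRNA (4.93 to 1200), 20.8 with p53 siRNA (3.28 to 867) and 12.6 with both siRNAs (3.18 to 109), intervals that cover counting error only. These intervals rest on 1 or 2 untreated counts, so their overlap cannot show whether the siRNA treatments differ. Among treated libraries, control siRNA gave 0.82 and 1.02 CPM, above all those with the other siRNA treatments (0.33 to 0.63 CPM). No siRNA effect on Acvrl1 was called. Endothelial markers summed to 7.25 to 9.8 CPM in treated and 4.6 to 9.45 CPM in untreated libraries, with Tie1 and Cldn5 at 0 in all treated ones. In control cells the sum went from 4.6 and 5.18 to 7.25 and 8 CPM with TGF-beta. Cdh5 and Erg were at 0 in untreated but not in treated control cells, and never above 0.296 CPM. With both siRNAs the sum went from 9.42 and 9.45 to 8.45 and 8.58 CPM, and with PRMT1 or p53 siRNA the libraries overlapped. The highest group mean of Acvrl1 was 0.917 ± 0.141 CPM (SD, n = 2). The part of these markers in the rise of Acvrl1 was not tested.

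Tgfbr3, which encodes betaglycan, fell furthest of the 10 genes, and more of it was left in treated cells with PRMT1 siRNA than with control siRNA. In control cells it went from 106.4 and 124.1 CPM to 18.7 and 23.0 CPM with TGF-beta, 18.1% of the untreated level (log2 change -2.46 ± 0.18, edgeR adjusted p = 6.3e-07). With p53 siRNA 146.0 and 129.5 CPM went to 28.5 and 18.7 CPM, which left 17.1% (-2.54 ± 0.18). The value of 18.7 in that group is from the library that stood apart, and without it the change was -2.28, against -2.47 for control siRNA in the same fit. With PRMT1 siRNA 147.8 and 143.1 CPM went to 40.7 and 49.1 CPM, which left 30.9% (-1.70 ± 0.17), and with both siRNAs 141.4 and 148.1 CPM went to 59.3 and 65.0 CPM, which left 42.9% (-1.22 ± 0.17). The treated libraries with PRMT1 siRNA, alone or combined, lay above all treated libraries with control or p53 siRNA. Set against the type II receptor per kilobase, Tgfbr3 went from 0.542 and 0.602 to 0.157 and 0.192 times Tgfbr2 in control cells, but from 0.848 and 0.835 to 0.504 and 0.538 times with both siRNAs.

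The other co-receptor gene, Eng, was low throughout, with 23 to 67 counts per library, and no TGF-beta response of it was called. Its control libraries read 1.99 and 1.65 CPM without and 1.85 and 1.44 CPM with TGF-beta. The highest value of all 16 libraries, 3.46 CPM, was in the library that stood apart, whose partner was at 1.13 CPM. The p53 siRNA response was 0.81 ± 0.41 with that library (edgeR adjusted p = 0.13) and -0.20 without it (adjusted p = 0.679). It was called higher without the low-count filter (0.81, adjusted p = 0.0282) and, with the library that stood apart as the only treated one, without its partner (1.42, adjusted p = 0.00052).

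Ltbp1 and Ltbp2 encode 2 of the proteins of the matrix fibrils to which latent TGF-beta is tethered, LTBP1 by binding the latent complex itself, while LTBP2 does not bind it. Ltbp1 rose the most of the well-detected genes: control libraries went from 78.9 and 88.8 CPM to 322.2 and 290.6 CPM (1.87 ± 0.15, edgeR adjusted p = 1.2e-06). With PRMT1 siRNA it went from 87.6 and 85.6 to 289.5 and 281.6 CPM (1.72 ± 0.15) and with both siRNAs from 69.2 and 71.3 to 240.5 and 252.5 CPM (1.81 ± 0.15). With p53 siRNA it went from 83.3 and 82.6 to 285.2 and 191.3 CPM (1.52 ± 0.15), the lower value again from the library that stood apart, without which the change was 1.78. Treated libraries were far above untreated ones in each case, with no overlap.

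Ltbp2 rose less. Its control libraries went from 91.7 and 97.1 to 143.9 and 129.6 CPM (0.53 ± 0.12, edgeR adjusted p = 0.0032), those with p53 siRNA from 100.3 and 98.7 to 185.8 and 149.1 CPM (0.75 ± 0.12, and 0.90 without the library that stood apart, at 149.1) and those with both siRNAs from 95.8 and 118.7 to 152.9 and 159.9 CPM (0.55 ± 0.12). With PRMT1 siRNA it went from 116.3 and 114.6 to 156.6 and 161.2 CPM (0.46 ± 0.12, edgeR adjusted p = 0.00986), a call lost without PRMT1 siRNA replicate 2 of either condition (adjusted p = 0.0601 when the untreated library was left out and 0.0579 for the treated one). Since Ltbp1 rose more, the ratio of Ltbp1 to Ltbp2 per kilobase went from 0.874 and 0.927 to 2.27 and 2.27 in control cells.

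Without TGF-beta, Tgfb3 was the only one of the 10 genes called in the siRNA comparisons. It was lower with PRMT1 siRNA, at 82.6 and 84.4 CPM against 125.8 and 124.1 CPM in control cells (66.8% of control, log2 -0.58 ± 0.06, edgeR adjusted p = 0.00029), in 2 of 2 libraries. With p53 siRNA it was higher, at 159.2 and 153.7 CPM (0.32 ± 0.06, edgeR adjusted p = 0.0212), and with both siRNAs lower, at 97.2 and 103.7 CPM (-0.32 ± 0.06, edgeR adjusted p = 0.0177). So 1 of 10 genes was called in each comparison, where PRMT1 siRNA had 10.3% of all genes called, p53 siRNA 2.47% and both siRNAs 4.45%. Nothing about the 10 genes as a set is read from these counts. The PRMT1 call was made in every alternative setting and with any 1 library left out. The p53 siRNA and both-siRNA calls were lost without the low-count filter (edgeR adjusted p = 0.183 and 0.172) and with any 1 library of the comparison left out, while with 15 libraries both were made (0.31 and -0.32, edgeR adjusted p = 0.00118 and 0.000606). More genes passed the threshold with 15 libraries, among the 10 and over all genes tested. In that fit Tgfbr3, Tgfbr2 and Ltbp2 were at 0.32, -0.25 and 0.27 with PRMT1 siRNA. With both siRNAs Tgfbr3, Tgfbr2, Tgfb1 and Ltbp1 were at 0.32, -0.23, 0.29 and -0.26. The median log2 change of the 10 genes was -0.02, 0.10 and 0.11 for PRMT1, p53 and both siRNAs, against 0.010, 0.006 and 0.005 over all genes tested.

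In the presence of TGF-beta, PRMT1 siRNA changed 2 of the 10 genes (15.7% of all genes called) and both siRNAs the same pair (13.1%). These counts are near the shares of all genes, so nothing is read from the counts. Tgfb3 was again lower, at 100.5 and 99.7 CPM with PRMT1 siRNA and 85.5 and 82.7 CPM with both siRNAs against 129.9 and 130.0 CPM in control cells (-0.38 ± 0.06, edgeR adjusted p = 0.0030, and -0.63 ± 0.06, adjusted p = 0.00010). Tgfbr3 was higher, at 215% of control with PRMT1 siRNA (1.10 ± 0.18, edgeR adjusted p = 0.00231) and 298% with both siRNAs (1.57 ± 0.18, edgeR adjusted p = 0.000215), from the libraries given above. These 4 calls held in every alternative setting and with any 1 library left out. With p53 siRNA and TGF-beta 1 of 10 genes was called (5.21% of all genes), a lower Tgfbr2 at 135.3 and 116.9 against 157.8 and 159.4 CPM (-0.33 ± 0.08, edgeR adjusted p = 0.0376). That call was lost with 15 libraries (-0.24, edgeR adjusted p = 0.0698) and without either control library, and the value turned to 0.07 with length offsets and 16 libraries. The 15-library fit called Ltbp2 there instead (0.44, edgeR adjusted p = 0.0196). The median log2 change was -0.13, -0.07 and -0.04 for PRMT1, p53 and both siRNAs, against 0.019, 0.030 and 0.011 over all genes tested. Comparisons with the same control libraries are not independent of each other.

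**Figure D4:**
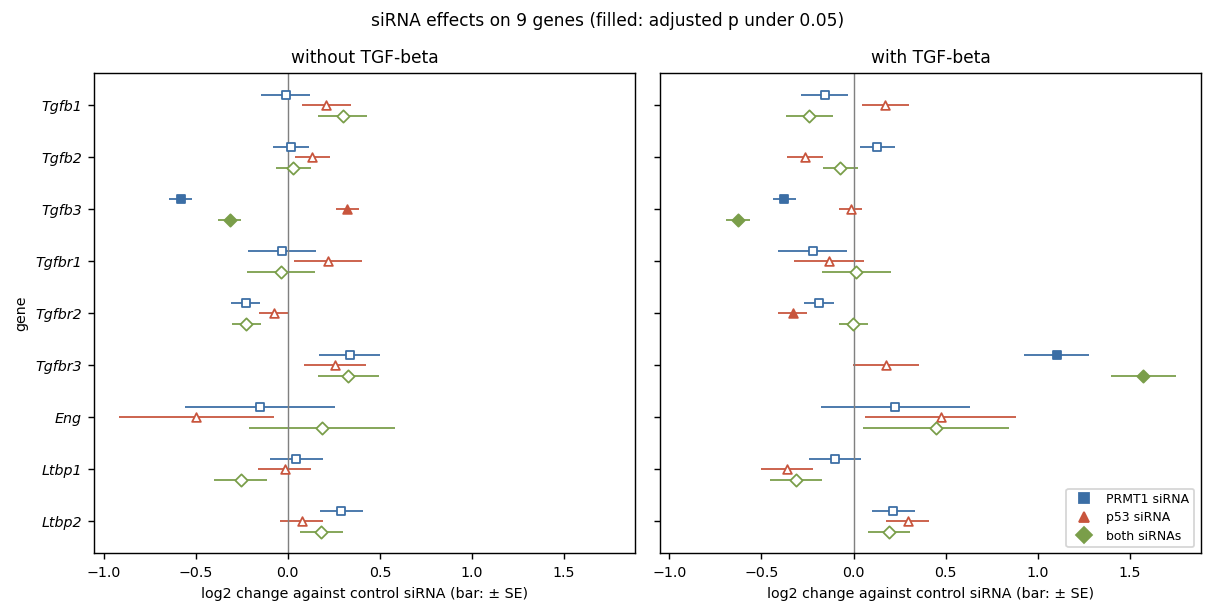
Log2 change against control siRNA (x axis, edgeR estimate, bars ± SE) of 9 genes (y axis) without TGF-beta (left) and with TGF-beta (right), with filled symbols where the adjusted p is under 0.05. Tgfb3 lies left of 0 for PRMT1 siRNA and both siRNAs in both panels, and Tgfbr3 lies furthest right in the panel with TGF-beta, at 1.10 and 1.57.

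Adding p53 siRNA to PRMT1 siRNA asked whether the double treatment differed from PRMT1 siRNA alone. The main edgeR fit used 16 libraries, the low-count filter and no length offsets. It called none of the 10 genes without TGF-beta (0.865% of all genes called) or with it (0.452%). Of the 10 genes, 2 and 3 had an unadjusted p under 0.05. DESeq2 called 1 gene in each, Tgfb3, which was at 0.27 without TGF-beta (DESeq2 adjusted p = 0.00063) and at -0.25 with it (adjusted p = 0.00236). Over all 15494 genes DESeq2 called 507 and 220. With 15 libraries edgeR called 3 genes without TGF-beta and 6 with it, of 16103 genes tested in that fit, 3482 and 1962 of them called. The library left out, replicate 2 of p53 siRNA with TGF-beta, is in neither comparison. The shared spread and the set of genes tested both differ between the fits, and their parts were not tested.

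The difference between TGF-beta responses was tested directly by interaction terms. For both siRNAs against control 1 of 10 genes was called (1.26% of all genes), Tgfbr3, whose fall was smaller by 1.24 ± 0.24 on the log2 scale (edgeR adjusted p = 0.035). This call was lost with any 1 of the 8 libraries of the comparison left out, and with a replicate block (1.24, edgeR adjusted p = 0.0616), with values between 1.11 and 1.41 when a library was left out. DESeq2 gave 1.24 (adjusted p = 0.000289, with 317 of 15494 genes called) and the 15-library fit 1.25. For PRMT1 siRNA alone no gene was called by the main edgeR fit or DESeq2 (2.08% of all genes in edgeR), with 2 at an unadjusted p under 0.05. The Tgfbr3 term was 0.77 ± 0.24 (edgeR adjusted p = 0.124), and 0.77 with 15 libraries. With 16 libraries the Tgfbr3 term was called without the low-count filter (0.79, edgeR adjusted p = 0.00054) and with length offsets (1.01, edgeR adjusted p = 0.0012). Over all genes these settings called 2128 of 27681 and 1229 of 15494, where the main fit called 322 of 15494. Length offsets also called Tgfb2 (0.28, edgeR adjusted p = 0.0228). For p53 siRNA the main edgeR fit called no gene (1.02% of all genes, 3 of the 10 at an unadjusted p under 0.05). DESeq2 called Tgfb3 (-0.35, adjusted p = 0.00171), with 456 of 15494 genes called. Length offsets with 16 libraries called Tgfb3 and Ltbp2 (-0.32 and 0.58, edgeR adjusted p = 0.0237 and 0.0191), with 583 of 15494 genes called.

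A pair of further differences between responses was tested after the data had been seen. The Tgfb3 response with p53 siRNA was lower than that with PRMT1 siRNA by a log2 difference of -0.55 ± 0.09 (edgeR adjusted p = 0.0045). Tgfb3 was the only one of the 10 genes called by the main edgeR fit in that contrast (5.91% of all genes). It was called in every alternative setting. DESeq2 also called Tgfb2 (-0.50, adjusted p = 0.0189) and Tgfbr3 (-0.85, adjusted p = 0.0195), with 1162 of 15494 genes called. The 15-library fit gave -0.35 for Tgfb2, -0.58 for Tgfbr3 and 0.44 for Ltbp2. Between the responses with both siRNAs and with PRMT1 siRNA the main edgeR fit called no gene of the 10 (0.0387% of all genes). At an unadjusted p under 0.05 was 1 gene, the Tgfb3 difference of -0.52. Its edgeR adjusted p was 0.123, against 6.1e-07 in DESeq2 and 0.00147 with 15 libraries. The untreated and treated libraries of these groups entered both this contrast and those above.

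Other genes of the pathway were read from lists written from general knowledge, but with earlier results of these data known. Their counts therefore describe the lists and are not an independent test. In 3 of the lists most members rose with TGF-beta. With TGF-beta in control cells, 15 of 17 tested latency and activation genes rose and 1 fell, where 17.8% of all genes were called higher and 20.6% lower, with a median log2 change of 1.40 against -0.009 over all genes. They include the gelatinase genes Mmp9 (5.35 ± 0.15, SE, from 46 summed counts to 1850) and Mmp2 (2.32 ± 0.08), whose products can release latent TGF-beta, and the integrin gene Itgb3 (3.45 ± 0.17). All 6 early target genes rose, among them Ctgf (4.30 ± 0.12) and Ankrd1 (3.51 ± 0.13). Of 13 feedback inhibitor genes 10 rose and 2 fell, with Pmepa1 (3.47 ± 0.10), Ldlrad4 (2.13 ± 0.15) and the inhibitory Smad gene Smad7 (1.40 ± 0.09) leading.

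Among 13 Smad and adaptor genes 2 rose and 3 fell, a share near the 38.4% of all genes called, so nothing is read from the count: Smad3, a direct TGF-beta effector, fell from 101.0 ± 9.38 to 54.5 ± 0.66 CPM (SD, n = 2, log2 change -0.89 ± 0.12), the adaptor gene Dab2 fell (-0.54 ± 0.10) and the BMP effector gene Smad1 rose (0.67 ± 0.09). Of 10 tested activin and BMP receptor genes 4 rose and 3 fell, with Acvr1 at 0.84 ± 0.09, Rgma at 0.77 ± 0.14 and Bmpr1b going from 3 to 143 summed counts. Of 9 tested other superfamily ligand genes 3 rose and 3 fell, with Bmp4 at -1.88 ± 0.13, Gdf11 at 0.68 ± 0.06 and Gdf10 going from 139 to 2 summed counts. For these and the next list the same 38.4% of all genes is the background. Bmpr1b without and Gdf10 with TGF-beta had too few counts to pass the low-count filter through those libraries. Both are in the numbers above, but, as for Acvrl1, their calls are not read as tests. Of 10 tested extracellular antagonist genes 5 rose and 4 fell, led by Dcn (-4.43 ± 0.15), whose product decorin binds TGF-beta, Fmod (-1.30 ± 0.08) and Fstl3 (2.96 ± 0.16).

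Counts under the other siRNA treatments follow for the lists in which most members rose. Latency and activation genes called higher numbered 13, 15 and 15 of 17 with PRMT1, p53 and both siRNAs, with 1 lower each, and all 6 early targets rose in each. Feedback inhibitors called higher numbered 9, 8 and 8 of 13. Over all genes 16.3%, 23.3% and 15% were called higher in these responses. The antagonist genes, a list split in direction, had 5 higher and 4 lower with control siRNA and 3 and 2 with PRMT1 siRNA. They had 5 and 3 with p53 siRNA and 4 and 3 with both. Over all genes 38.4%, 32.5%, 45.3% and 31.3% were called in these 4 responses, and nothing is read from the antagonist counts. Against control in the presence of TGF-beta, both siRNAs lowered 4 of the 6 early targets and raised none (13.1% of all genes called), with Ctgf at -1.27 ± 0.10 and Ankrd1 at -0.63 ± 0.11. With PRMT1 siRNA 1 of the 6 was called higher and 1 lower there (15.7% of all genes called, list median -0.04), and without TGF-beta 4 were called higher and 1 lower (10.3% of all genes called, list median 0.52). With p53 siRNA 1 was higher and 2 lower with TGF-beta (5.21% of all genes called), and 0 and 2 without it (2.47%). Adding p53 siRNA to PRMT1 siRNA gave 1 higher and 3 lower with TGF-beta (0.452%), and 0 and 1 without it (0.865%). The antagonist gene Dcn, like Tgfbr3, was higher in treated cells with PRMT1 siRNA (1.02 ± 0.14) and with both siRNAs (1.34 ± 0.14), and its interaction terms were 1.14 ± 0.19 and 1.01 ± 0.19 (edgeR adjusted p = 0.013 and 0.028).

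Genes whose pattern was most like that of each member were found by Pearson correlation of group mean log2(CPM + 1) over the 8 groups, searching genes whose mean level reached 5 CPM, a description that mostly follows the split by TGF-beta. For Tgfb1 they were B4galt1 (r = 0.994), Gpr153 and Ier2. For Tgfbr2 they were Ptprj (r = 0.997), Msh3 and Ermp1, and for Tgfbr1 Rmnd5a (r = 0.994), Neo1 and Agtpbp1. Tgfbr3 was closest to Atg14 (r = 0.995), Abca1 and Ptgr2, and Acvrl1 to Stk38l (r = 0.994), Rabgef1 and Skil, the last a Smad corepressor gene that TGF-beta is known to induce. Ltbp1 was closest to Hhipl1 (r = 0.997), Adamts4 and Ctdp1, and Ltbp2 to Dus2 (r = 0.998), 2410016O06Rik and Slc4a1ap. The 3 genes with other patterns had lower best values, 0.967 for Tgfb3 (Cog2, then Rwdd2b), 0.962 for Tgfb2 (Atp6v1c1, also Nabp1) and 0.962 for Eng (Pold3, then Poc1a and Cars2). Among the members themselves, Tgfb3 had the weakest ties, with r between -0.57 and 0.25 to the other 9, while Tgfbr2 and Ltbp2 were at r = -0.98 and Acvrl1 and Ltbp1 at r = 0.97.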

How the data were processed

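Expected counts per gene were deposited for 16 libraries of MEC1 RNA, and 60% of their values above 0 lay within 0.01 of a whole number. Per the submitters' processing notes the authors used TopHat2, Partek and the mm10 build, and versions, strand setting and annotation are not given in the sources used here. Counts were rounded and fitted in edgeR 4.0.16 (R 4.3.3) with TMM factors, 1 mean per group, all 16 libraries and 1 shared spread, after filterByExpr left 15494 of 29120 genes with a count. Library totals of 19617874 to 30759317 set the counting precision, and the common biological coefficient of variation was 0.114. The quasi-likelihood test was adjusted by Benjamini-Hochberg over all genes tested, SE is the log2 change divided by the square root of F, and a call is an adjusted p under 0.05. The fitting code was run on counts simulated with an equal spread for all genes, smaller than that of these data. That run therefore does not show the error rates here.

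Positions and lengths came from GENCODE vM21, with 42003 genes matched by symbol and 799 by synonym, and promoters from RefSeq on GRCm38.p6. All 10 genes, both siRNA targets, up to 3 genes per pathway list and contrast with the lowest adjusted p, and the 3 most similar genes of each member could be named. Some genes that this rule selects are not reported here. The members and lists were chosen with earlier results of these data known, and 2 differences between responses were added after seeing the data. Alternatives were DESeq2 1.42.0, RLE factors, no filter, a replicate block, 15 libraries (without p53 siRNA with TGF-beta replicate 2), offsets for transcript length and leaving out each library.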

Additional observations from a re-analysis of the deposited data

Results flagged for a closer look

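The Tgfbr3 response to TGF-beta differed between both siRNAs and control siRNA by 1.24 ± 0.24 on the log2 scale (SE, edgeR interaction term, adjusted p = 0.0352), with 42.9% of the untreated level left in place of 18.1%. Both treated libraries with both siRNAs (59.3 and 65.0 CPM) lay above both treated control libraries (18.7 and 23.0 CPM). The call was lost with a replicate block (1.24, edgeR adjusted p = 0.0616) and with any 1 of the 8 libraries left out, with values from 1.11 to 1.41.

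The Tgfb3 response differed between p53 siRNA and PRMT1 siRNA by -0.55 ± 0.09 (SE, edgeR, adjusted p = 0.00454), a contrast chosen after seeing the data. The treated libraries lay below the untreated ones with p53 siRNA and above them with PRMT1 siRNA, with no overlap. No check for single values far from their group was run, since each group held 2 libraries.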

How the results depend on the processing

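For the TGF-beta responses 6 to 9 of the 10 genes were called over all settings, and 6 to 10 with 1 library left out. Over all genes, settings with 16 libraries called 4541 to 8280 in these responses. Counts for the siRNA comparisons and interactions were 0 to 2 in the main edgeR fit with 16 libraries. With DESeq2 they were 2 for PRMT1 siRNA and 2 for both siRNAs without TGF-beta, 1 and 1 for p53 siRNA added to PRMT1 siRNA without and with TGF-beta, and 1 and 2 for the p53 and both-siRNA interactions. In the same order DESeq2 called 1912 and 999, 507 and 220, and 456 and 317 of all 15494 genes. Without the low-count filter they were 0 for p53 siRNA and 0 for both siRNAs without TGF-beta, 1 for p53 siRNA added with TGF-beta and 1 for the PRMT1 interaction. Of all 27681 genes tested without the filter, 609, 1133, 586 and 2128 were called in these comparisons.

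With 15 libraries they were 4 for PRMT1 siRNA and 5 for both siRNAs without TGF-beta, 5 and 4 with TGF-beta, 3 and 6 for p53 siRNA added without and with TGF-beta, and 2, 1 and 3 for the PRMT1, p53 and both-siRNA interactions. With length offsets and 16 libraries they were 2 for PRMT1 siRNA and 2 for both siRNAs without TGF-beta, 5, 2 and 5 for PRMT1, p53 and both siRNAs with it, 1 and 3 for p53 siRNA added, and 2, 2 and 3 for the interactions. With length offsets and 15 libraries they were 4, 2 and 5 without TGF-beta, 5, 3 and 5 with it, 3 and 4 for p53 siRNA added, and 4, 2 and 3 for the interactions. Libraries and genes tested both differ between these settings (16103 genes with 15 libraries in place of 15494), and the cause was not tested.

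With 1 library left out the count was 0 to 0 for p53 siRNA and for both siRNAs without TGF-beta and for the both-siRNA interaction, 0 to 6 for p53 siRNA with TGF-beta and 0 to 6 for the p53 interaction. Each 6 arose without p53 siRNA with TGF-beta replicate 1, where the only library left is the one that stood apart, taken to have the spread of the remaining groups.

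The replicate numbers did not pair the libraries: over 28 pairs of groups the correlation of replicate differences ran from -0.4 to 0.25 (median 0), over 0.1 in 6 and under -0.1 in 8. With a replicate block the count was 0 for p53 siRNA with TGF-beta and 0 for the both-siRNA interaction (Tgfbr3 1.24, edgeR adjusted p = 0.0616), and no other count changed.

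Some directions turned. The Eng response with p53 siRNA was -0.20 with 15 libraries and -0.22 with length offsets as well, and ran from -0.20 to 1.42 with 1 library left out. Tgfbr1 with p53 siRNA against control in treated cells became 0.21 with 15 libraries, 0.06 with length offsets and 0.23 with both, and ran from -0.60 to 0.21 with 1 library left out. With length offsets, Tgfbr2 in treated cells became 0.07 for PRMT1 siRNA with 16 or 15 libraries and 0.07 for p53 siRNA with 16, and its response with both siRNAs less that with PRMT1 siRNA became -0.23 with either number, as did that of Ltbp1 (-0.23). Tgfbr3 with p53 siRNA in treated cells ran from -0.16 to 0.44 with 1 library left out. Tgfbr2 with p53 siRNA added to PRMT1 siRNA in untreated cells was 0.00 without the filter and ran from -0.04 to 0.04.

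Of 658 single-gene values under other settings 514 kept direction and side of the threshold, 120 passed it newly, 11 no longer passed it and 13 turned, and of 456 with 1 library left out these were 408, 12, 31 and 5. Depth limited Acvrl1 (0 or 1 count in untreated libraries) and Eng (23 to 67 counts).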
